A study of Mus musculus with 8 samples.

Results

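Expression of 8 genes of the serotonin pathway was described in the colon of DSS-treated mice labelled Trim58+/+ or Trim58-/-. They are Tph1, Ddc, Slc18a1, Slc6a4, Maoa, Htr3a, Htr4 and Htr7, 8 of 22180 genes tested. A gene was measured by the probe set annotated with its symbol alone, or by the brightest of them on average where several exist. Each of the 8 genes had 1 such probe set, so no probe set was chosen by its level. The genes themselves were chosen with earlier results of these arrays known, including the lower Slc6a4 signal in the knockout, so their counts give no independent support.

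RNA from the middle colon of 8 female mice, aged 9 weeks, was measured on 1 array per mouse. Dextran sodium sulfate (DSS), which injures the colon epithelium, was given in drinking water at 4% for 7 days, followed by 5 days of plain water, and colon was taken on day 12. The 4 wild type mice (Trim58+/+) and the 4 knockout mice (labelled Trim58-/-; Trim58 encodes a ubiquitin ligase) carry the same strain label, C57BL/6-Trim58tm2313Arte. All 8 mice received DSS, so no untreated colon was compared. The samples are whole tissue, in which fewer cells of a type and less RNA per cell cannot be told apart. Array values are log2 signals, and a difference of 1 is a doubling. The Trim58 probe set itself did not separate the genotypes (log2 difference -0.07, adjusted p = 0.839 by limma) and so does not check the labels. Its mean of 5.09 was below the 95th percentile of 1105 olfactory receptor genes (5.53), which the colon should hardly transcribe and which serve as a guide to background. Whether its probes lie in the deleted part was not examined here. The epithelial markers Epcam, Cdh1 and 8 others averaged 10.74 to 10.98 in every array, and 10 smooth muscle and pacemaker cell markers 9.88 to 10.70.

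Most serotonin of the body is made in the gut by enterochromaffin cells, hormone cells scattered in the epithelium. Tryptophan hydroxylase 1 (Tph1) performs the rate-limiting step, aromatic L-amino acid decarboxylase (Ddc) completes the synthesis, and the vesicular monoamine transporter encoded by Slc18a1 loads serotonin into granules. Released serotonin acts on receptors of nerves, muscle, epithelium and immune cells, and the serotonin transporter (Slc6a4) of epithelial cells, neurons and platelets removes it. Monoamine oxidase A (Maoa) then breaks it down.

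The promoters of Slc6a4 and Tph1 are shown because uptake and the first step of synthesis had the largest differences of the 8 genes. Each runs from 250 bases before the RefSeq start of the gene to 50 after it (GRCm38.p6), read 5′ to 3′ along the gene. Capitals mark 4 short motifs found on either strand. They are the CCAAT box, written as in its name, a TATA box core spelled TATAA, the core of the cAMP response element spelled TGACG, and a GC box spelled GGGCGG; no pair of them shares letters in these windows. Slc6a4 has 1 listed start, on the plus strand at chr11:76998347-76998646. Tph1 has 2, on the minus strand, the upstream at chr7:46672488-46672787 and the downstream at chr7:46667328-46667627.
Slc6a4: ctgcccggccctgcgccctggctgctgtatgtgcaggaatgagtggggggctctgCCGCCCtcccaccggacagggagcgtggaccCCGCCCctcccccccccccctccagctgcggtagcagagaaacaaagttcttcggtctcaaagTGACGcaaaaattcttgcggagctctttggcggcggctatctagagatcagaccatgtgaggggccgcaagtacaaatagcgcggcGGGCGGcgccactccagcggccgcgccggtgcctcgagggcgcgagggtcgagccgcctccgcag
Tph1 upstream start: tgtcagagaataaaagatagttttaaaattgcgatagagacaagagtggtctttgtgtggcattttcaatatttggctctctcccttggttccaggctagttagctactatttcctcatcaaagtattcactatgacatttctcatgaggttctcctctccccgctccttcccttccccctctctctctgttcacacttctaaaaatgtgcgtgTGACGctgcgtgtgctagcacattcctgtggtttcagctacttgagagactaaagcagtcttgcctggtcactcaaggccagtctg
Tph1 downstream start: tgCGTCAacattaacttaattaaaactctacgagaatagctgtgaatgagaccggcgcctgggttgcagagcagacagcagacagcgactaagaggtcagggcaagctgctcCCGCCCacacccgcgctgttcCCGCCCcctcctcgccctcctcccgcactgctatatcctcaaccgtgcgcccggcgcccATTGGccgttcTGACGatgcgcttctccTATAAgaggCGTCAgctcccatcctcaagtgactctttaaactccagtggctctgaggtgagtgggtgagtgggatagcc

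The downstream Tph1 window held an inverted CCAAT box beginning at -58, a TATA box core at -30, 3 cAMP response cores and 2 GC boxes. The Slc6a4 window held 3 GC boxes and 1 cAMP response core, with no match to the other motifs, and the upstream Tph1 window held 1 cAMP response core. Of 32851 promoter windows of this length, 37.4% held the CCAAT box on either strand, 24.9% the TATA box core, 20.8% the cAMP response core and 35.7% the GC box, so each of these motifs is common. The cAMP response core was the single motif that all 3 windows shared. It was also present in the windows of Maoa and Htr7 and in neither of the 2 windows of Ddc. Slc18a1, Htr3a and Htr4 were not searched. A match describes the letters only, and the arrays do not tell which Tph1 start was used.

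The knockout colon had less RNA signal for the serotonin transporter gene Slc6a4, and lower but uncalled values for the synthesis genes Tph1 and Ddc. Slc6a4 was 1.91-fold lower in the knockout and was the 1 gene of the 8 past the adjusted threshold. That call depended on single arrays. Tph1 and Ddc, the enzymes of synthesis, also had every knockout value below every wild type value but did not pass. The storage, breakdown and receptor genes overlapped between genotypes. In all genes tested, 0.577% passed the adjusted threshold (limma, Benjamini-Hochberg adjusted p under 0.05), 0.185% as lower and 0.392% as higher in the knockout. At an unadjusted p under 0.05, 4 of the 8 genes were lower and 0 higher, against 8.1% and 6.22% of all genes. The knockout and wild type values did not overlap in 3 of the 8, all lower, against 8.81% of all genes without overlap, 5.02% lower and 3.79% higher. The log2 difference was below 0 in 6 of the 8 and in 53.9% of all genes, and its median was -0.27 over the 8 and -0.01 over all genes.

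**Figure D1:**
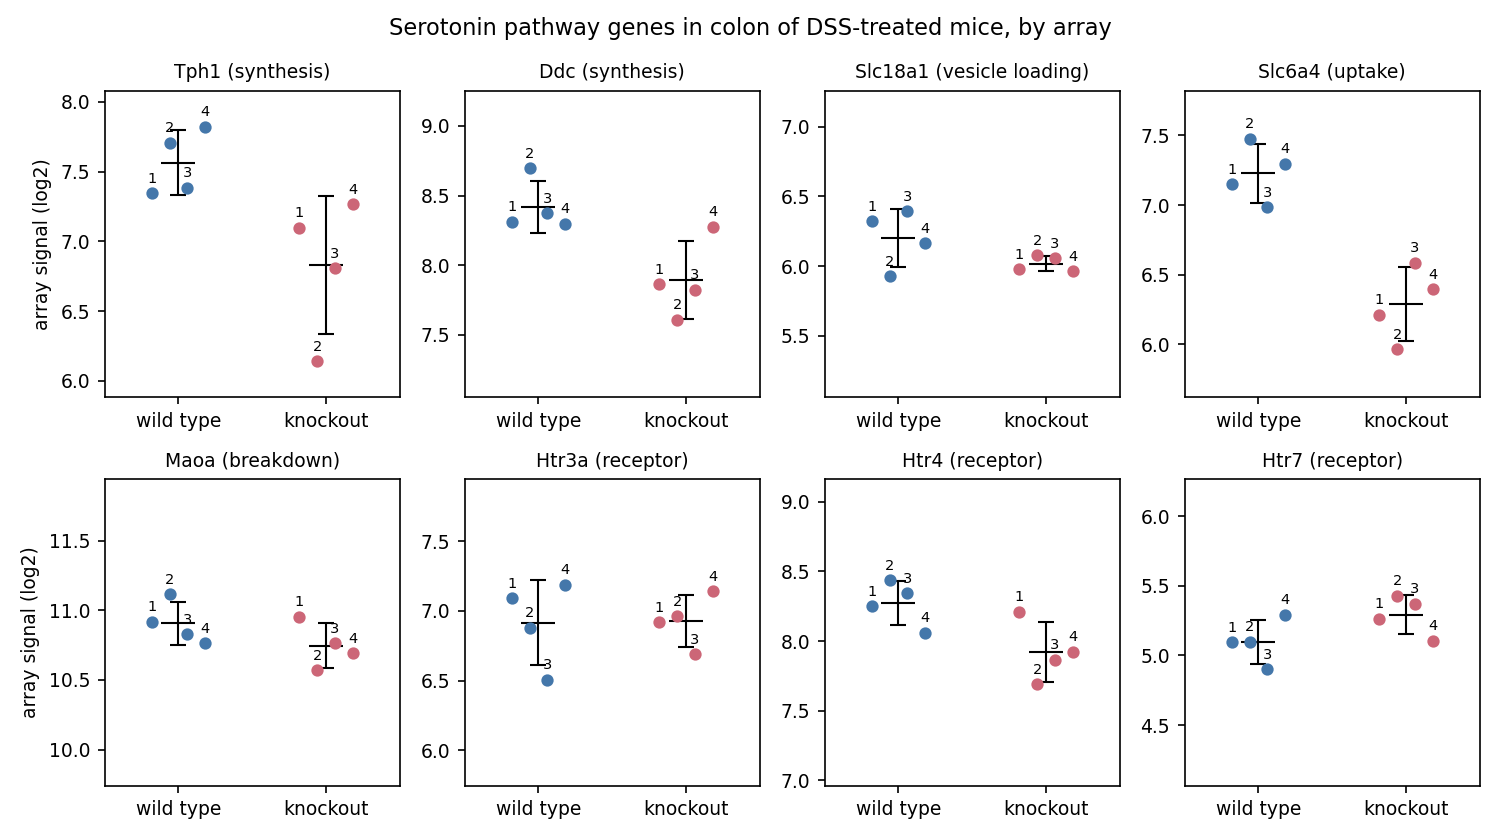
Array signal (log2) of the 8 serotonin pathway genes, 1 panel per gene with a window of equal height. Points are mice numbered by replicate, and bars are the mean and SD of 4 mice; the wild type and knockout points are apart in Tph1, Ddc and Slc6a4 and overlap in the other panels.

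Tph1, which commits tryptophan to serotonin, read 7.35, 7.71, 7.39 and 7.82 in wild type replicates 1 to 4 and 7.10, 6.14, 6.81 and 7.27 in knockout replicates 1 to 4 (log2 signal). Every knockout value lay below the lowest wild type value. Knockout replicate 2 was the lowest and knockout replicate 4 came within 0.1 of wild type replicate 1. The means were 7.57 ± 0.24 in wild type and 6.83 ± 0.50 in knockout (SD, n = 4 each). The log2 difference of -0.74 (95% interval -1.23 to -0.25) did not pass the test (adjusted p = 0.153 by limma, unadjusted p = 0.00716). Tph2, the neuronal tryptophan hydroxylase, had a log2 difference of 0.05 (95% interval -0.14 to 0.23) at a mean signal of 4.67 in wild type and 4.72 in knockout, below the olfactory receptor percentile, so this narrow interval says little about Tph2 RNA.

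Ddc, which turns 5-hydroxytryptophan into serotonin and also makes dopamine, read 8.31, 8.70, 8.37 and 8.30 in wild type and 7.86, 7.61, 7.82 and 8.28 in knockout (log2 signal). The groups did not overlap, but knockout replicate 4 almost reached wild type replicate 4. Knockout minus wild type was, in log2, -0.53 (95% interval -0.85 to -0.21; adjusted p = 0.129 by limma, unadjusted p = 0.00424). Knockout replicate 2 was the lowest array for Ddc, as it was for Tph1.

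Slc18a1, the granule transporter of endocrine cells, read 6.32, 5.93, 6.39 and 6.17 in wild type and 5.98, 6.08, 6.05 and 5.96 in knockout (log2 signal). The 4 knockout values lay close together, inside the wild type range. The log2 difference was -0.18 (95% interval -0.42 to 0.05; adjusted p = 0.473 by limma). Slc18a2, the related vesicle transporter of neurons, mast cells and platelets, had a log2 difference of -0.12 (95% interval -0.33 to 0.09 in the same fit).

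Slc6a4, which takes serotonin back into cells, read 7.15, 7.48, 6.99 and 7.30 in wild type and 6.21, 5.97, 6.59 and 6.40 in knockout (log2 signal). The highest knockout value, in replicate 3, was 6.59 and the lowest wild type value, also in replicate 3, was 6.99. The means were 7.23 ± 0.21 and 6.29 ± 0.26 (SD, n = 4 each). Knockout minus wild type was, in log2, -0.93 (95% interval -1.26 to -0.61, adjusted p = 0.0231 by limma), larger than the spread within either genotype. By size it was the 10th and by p the 11th of 41 genes called lower. The call depended on single arrays: it was lost without wild type replicate 2 (adjusted p = 0.0850 by limma), wild type replicate 4 (0.0739), knockout replicate 1 (0.0688) or knockout replicate 2 (0.0622), with the log2 difference between -0.83 and -1.03 over the 8 fits that each left out 1 array.

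Maoa, the mitochondrial enzyme that oxidises serotonin, had the highest mean signal of the 8 probe sets and small differences. It read 10.92, 11.11, 10.83 and 10.76 in wild type and 10.95, 10.57, 10.76 and 10.69 in knockout (log2 signal). Knockout replicate 1 stood above 3 of the wild type values and the groups overlapped. The log2 difference was -0.16 (95% interval -0.40 to 0.08; adjusted p = 0.554 by limma).

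Of the receptor genes none passed. Htr4 encodes a receptor coupled to cAMP that promotes motility and secretion. It read 8.25, 8.44, 8.34 and 8.06 in wild type and 8.21, 7.69, 7.87 and 7.92 in knockout (log2 signal). Knockout replicate 1 lay among the wild type values and the other 3 knockouts below them. Knockout minus wild type was, in log2, -0.35 (95% interval -0.62 to -0.08; adjusted p = 0.214 by limma, unadjusted p = 0.0162).

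Htr3a encodes a subunit of the serotonin-gated ion channel of nerves. It read 7.09, 6.88, 6.51 and 7.19 in wild type and 6.92, 6.96, 6.69 and 7.14 in knockout (log2 signal), and replicate 3 was the lowest of each genotype. The log2 difference was 0.01, and its 95% interval of -0.32 to 0.35 leaves room for differences of up to that size in either direction (adjusted p = 0.982 by limma).

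Htr7, a further receptor coupled to cAMP, read 5.10, 5.10, 4.90 and 5.29 in wild type and 5.26, 5.43, 5.37 and 5.11 in knockout (log2 signal). The groups overlapped, with a log2 difference of 0.20 (95% interval -0.04 to 0.43; adjusted p = 0.437 by limma). Its mean of 5.19 was below the olfactory receptor percentile of 5.53, so this signal is near background and its difference may be compressed. The means of the other 7 genes lay above that percentile, from 6.11 for Slc18a1 to 10.83 for Maoa. Signals of different probe sets have no common scale, so this rank is a rough guide to detection only.

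The arrays did not vary in the same way for all 8 genes. Knockout replicate 2 was the lowest of the 8 arrays for 5 genes (Tph1, Ddc, Slc6a4, Maoa and Htr4) and the highest for Htr7. Wild type replicate 2 was the highest for 4 genes (Ddc, Slc6a4, Maoa and Htr4). The shift from the wild type mean in knockout replicates 1 to 4 was -1.01, -1.26, -0.64 and -0.83 for Slc6a4 and -0.47, -1.42, -0.76 and -0.30 for Tph1 (log2).

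None of the 39 other pathway genes measured passed the adjusted threshold (limma). Of 13 measured genes for the tetrahydrobiopterin cofactor and tryptophan supply, 0 passed the adjusted threshold, while 1 was lower and 1 higher at an unadjusted p under 0.05. The lower was Qdpr, which regenerates the cofactor (log2 difference -0.22, adjusted p = 0.183 by limma). The higher was Slc7a5, an amino acid transporter that carries tryptophan (log2 difference 0.36, adjusted p = 0.308 by limma). Ido1, which diverts tryptophan to kynurenine, had a log2 difference of 0.94 with a wide 95% interval of -0.10 to 1.97 (adjusted p = 0.405 by limma).

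Of 9 further genes of synthesis, storage and breakdown, 0 passed the adjusted threshold and 4 were lower at an unadjusted p under 0.05. Maob, the second monoamine oxidase, had means of 7.96 ± 0.23 in wild type and 7.20 ± 0.38 in knockout (SD, n = 4 each) with no overlap. Its log2 difference was -0.76 (adjusted p = 0.0983 by limma). The aldehyde dehydrogenases Aldh2 and Aldh1b1, which act on the product of monoamine oxidase, had log2 differences of -0.36 and -0.34 (adjusted p = 0.170 and 0.139 by limma). Sult1a1, a sulfotransferase, had a log2 difference of -0.78 (adjusted p = 0.176 by limma).

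Of 4 other monoamine transporters, 0 passed, and the plasma membrane monoamine transporter Slc29a4 was lower at an unadjusted p under 0.05 with a log2 difference of -0.24 (adjusted p = 0.220 by limma). Of 13 further receptors and receptor partners, 0 passed. Htr2a was higher at an unadjusted p under 0.05 with a log2 difference of 0.32 (adjusted p = 0.141 by limma), and its mean signal of 4.79 in wild type and 5.11 in knockout was in the range of the olfactory receptor genes. Of these 13 genes, 9 had a mean not above the olfactory receptor percentile. Over the other 12 of this list the log2 differences lay between -0.20 and 0.08.

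**Figure D2:**
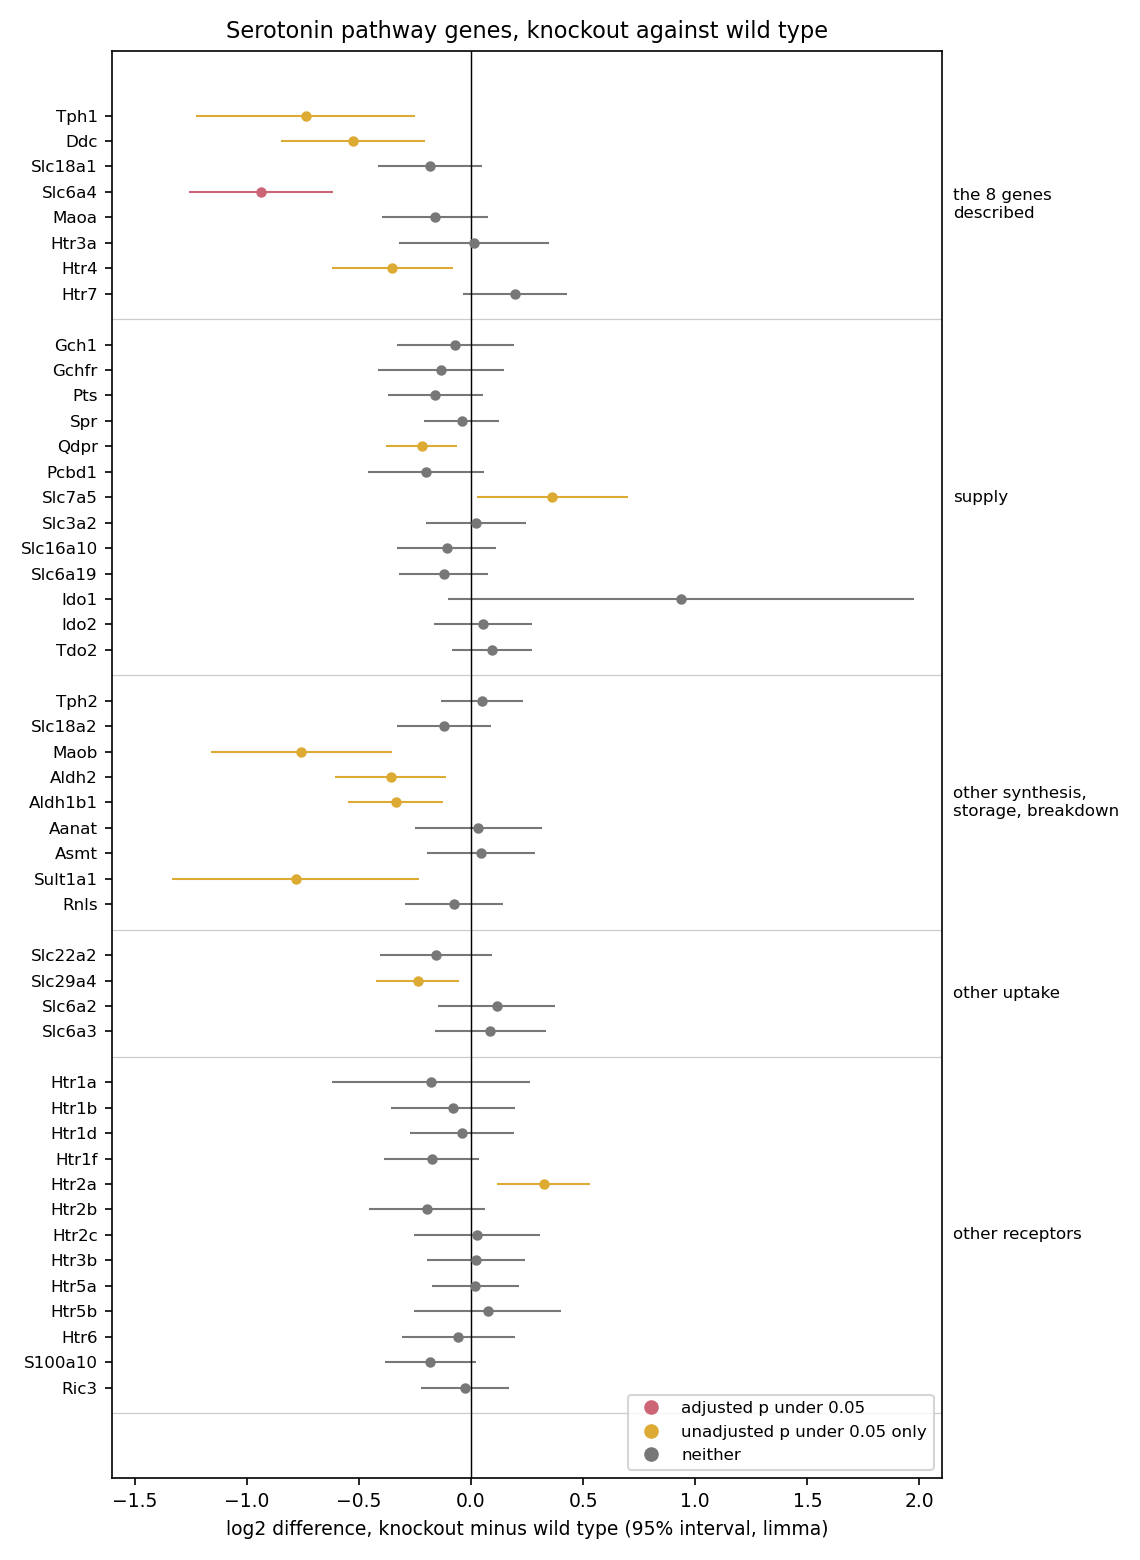
Log2 difference, knockout minus wild type, with its 95% interval from limma for the 8 genes and the 39 other pathway genes measured. Slc6a4 (red) is the single gene of the plot past the adjusted threshold, and the yellow points have an unadjusted p under 0.05 only.

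Markers of the cells that make or use serotonin were set beside these values. Of 16 measured enterochromaffin cell genes, 0 passed the adjusted threshold and 7 were lower and 0 higher at an unadjusted p under 0.05, with a median log2 difference of -0.24. The mean signal of 5 of the 16 was not above the olfactory receptor percentile. Chromogranin A (Chga), a granule protein of enterochromaffin cells, read 8.98, 9.10, 9.04 and 9.03 in wild type and 8.49, 7.78, 8.54 and 8.63 in knockout (log2 signal). No values overlapped, and knockout replicate 2 was the lowest, as for Tph1 (log2 difference of Chga -0.68, adjusted p = 0.0993 by limma). Within an array, Tph1 minus Chga was -1.47 ± 0.21 in wild type and -1.53 ± 0.18 in knockout (log2, SD, n = 4 each), a difference between genotypes of -0.06. Tph1 minus the enterochromaffin list mean was 1.11 ± 0.28 in wild type and 0.54 ± 0.40 in knockout (log2, SD, n = 4 each), a difference of -0.57. The Tph1 difference was thus close to that of Chga, which had the most negative log2 difference of the 16 genes. The Tph1 difference was larger than that of the list mean, which includes the 5 dim genes, and no test was made. Chromogranin B (Chgb) had a log2 difference of -0.30 (adjusted p = 0.458 by limma). Lmx1a, a transcription factor of enterochromaffin cells, had a log2 difference of -0.34 and no overlap (adjusted p = 0.174 by limma), and Scg5, a secretory granule chaperone, -0.43 (adjusted p = 0.106 by limma). The mean signals of Lmx1a (5.33 in wild type, 4.99 in knockout) and, in the knockout, of Scg5 (5.72 and 5.30) lay below the olfactory receptor percentile. Tac1, the substance P precursor that these cells share with nerves, had a log2 difference of 0.21 (adjusted p = 0.632 by limma). Over the list, 11 of the 16 genes had a log2 difference below 0, against 53.9% of all genes. The highest was 0.26, for Trpa1 (adjusted p = 0.639 by limma).

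Of 13 measured genes of other enteroendocrine cells, 1 passed as lower, Ppy (pancreatic polypeptide; log2 difference -1.48, adjusted p = 0.0149 by limma), and 6 were lower and 1 higher at an unadjusted p under 0.05. The Ppy call was lost without wild type replicate 2 or 4 (highest adjusted p = 0.0593 by limma). Insl5, Pyy and Sst had log2 differences of -1.17, -0.87 and -0.56, each with no overlap (adjusted p = 0.0564, 0.0797 and 0.0501 by limma). The mean of this list was 7.34 to 7.65 in the wild type arrays and 6.94 to 7.22 in the knockout arrays, and that of the enterochromaffin list 6.42 to 6.56 and 6.17 to 6.40 (log2). What part the number of enteroendocrine cells has in the Tph1 and Ddc values was not tested.

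Mast cells also make serotonin with Tph1 in mice. Of 11 mast cell markers measured, 1 passed as higher (Hdc, the histamine-forming enzyme that neutrophils also express) and none as lower, and the list mean was 4.67 to 5.11 in wild type and 4.84 to 5.21 in knockout (log2). The protease genes Mcpt1, Mcpt2, Mcpt4, Cma1 and Tpsb2 had log2 differences between -0.02 and 0.18. Of the 11 markers, 7 had a mean signal not above the olfactory receptor percentile, among these proteases all but Mcpt1, so these small differences say little about mast cells. Kit, which pacemaker cells of the gut muscle share, had a log2 difference of -0.34 (adjusted p = 0.161 by limma).

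Slc6a4 RNA can come from epithelium, nerves and platelets. Of 14 absorptive colonocyte genes, 2 passed as lower, the carbonic anhydrase gene Car4 (log2 difference -0.84) and the sugar phosphate transporter gene Slc37a2 (-1.81), with adjusted p of 0.0401 and 0.0478 by limma. Both calls were lost in most other settings, as each passed in 7 of 16; of the 8 fits that left out 1 array, Car4 passed in 1 (without knockout replicate 3) and Slc37a2 in 2 (without wild type replicate 3 or knockout replicate 3), and the highest adjusted p was 0.151 for Car4 and 0.154 for Slc37a2 by limma. At an unadjusted p under 0.05, 8 of the 14 were lower and 2 higher, the retinol dehydrogenase gene Dhrs9 (log2 difference 0.54, no overlap, adjusted p = 0.169 by limma) and the lipid droplet protein gene Hsd17b13 (1.02, adjusted p = 0.141 by limma). The list mean was 10.11 to 10.43 in wild type and 9.78 to 9.91 in knockout (log2). All 10 general epithelial markers had log2 differences below 0, with a median of -0.12 and 0 calls (2 lower at an unadjusted p under 0.05). Slc6a4 minus the colonocyte list mean was -2.99 ± 0.13 in wild type and -3.53 ± 0.27 in knockout (log2, SD, n = 4 each), and Slc6a4 minus the epithelial list mean -3.71 ± 0.19 and -4.49 ± 0.21. The Slc6a4 difference was thus larger than that of either list mean, by -0.54 and -0.78. Since Slc6a4 was known to be lower when this was computed, no test was made. The colonocyte list mean joins genes that differed in direction, with 11 of the 14 log2 differences below 0. Single genes of that list differed by more than Slc6a4, among them Slc37a2 and Aqp8 (log2 difference of Aqp8 -1.16, adjusted p = 0.0543 by limma). Slc20a1, at -0.90, was close to Slc6a4.

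Of 11 enteric neuron genes, 0 passed and 4 were lower at an unadjusted p under 0.05, among them Snap25 of the synaptic vesicle machinery (log2 difference -0.67, adjusted p = 0.0792 by limma). The neuron list mean overlapped between genotypes (6.36 to 6.68 and 6.08 to 6.54). Of 9 platelet and megakaryocyte markers measured, 0 passed, 1 was lower at an unadjusted p under 0.05, and the list mean was 5.50 to 5.66 in wild type and 5.55 to 5.68 in knockout. All 10 smooth muscle and pacemaker cell genes had log2 differences below 0, with 0 calls and 8 lower at an unadjusted p under 0.05. Their list mean was 10.33 to 10.70 in wild type and 9.88 to 10.42 in knockout, beside the lower Htr4 values in knockout replicates 2 to 4. What part these cell types have in the Slc6a4 and Htr4 values was not tested.

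**Figure D3:**
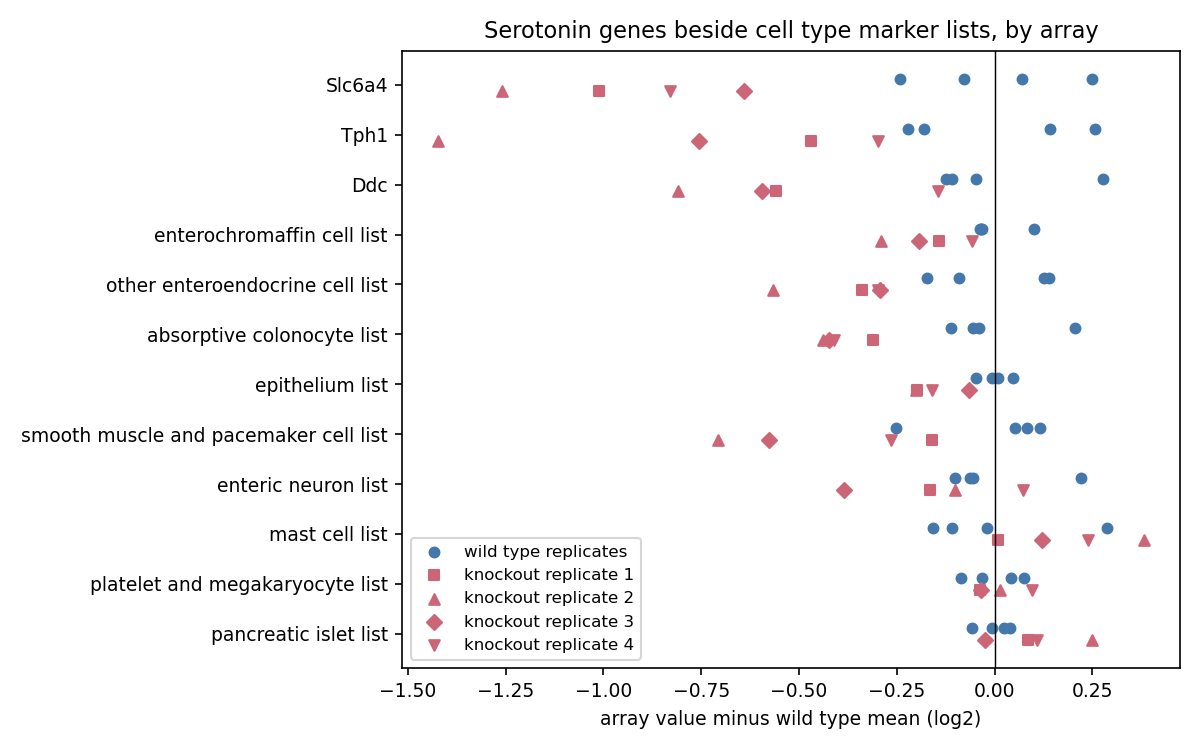
Array value minus the wild type mean (log2) for Slc6a4, Tph1, Ddc and the mean of 9 marker lists. Knockout replicates have separate symbols; all 4 lie below the wild type points for the 3 genes, the enterochromaffin, other enteroendocrine, colonocyte and epithelium lists, and overlap with them for the platelet list.

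Pancreatic digestive enzyme RNA was present in knockout replicates 1, 2 and 4, where 14 acinar genes averaged 9.99, 10.99 and 10.74, against 5.32 in knockout replicate 3 and 5.35 to 5.48 in wild type (log2). Of 12 neutrophil markers, 9 passed as higher, with list means of 5.08 to 5.52 in wild type and 6.80 to 7.63 in knockout, the lowest knockout mean being that of replicate 4. Of 8 fibroblast genes, 1 passed as higher, the collagen gene Col1a2 (log2 difference 0.64, adjusted p = 0.0397 by limma), and 6 were higher at an unadjusted p under 0.05, with every knockout list mean above every wild type one, by 0.44 (log2) on average. The Col1a2 call was kept in 2 of the 8 fits that left out 1 array, those without wild type replicate 1 or knockout replicate 3 (highest adjusted p = 0.155 by limma). Of 8 lymphocyte genes, 0 passed; the B cell gene Ms4a1 had a log2 difference of 1.44 (adjusted p = 0.0613 by limma) and the plasma cell gene Jchain -1.31 (adjusted p = 0.159 by limma). What part the content of these cells has in the serotonin gene values was not tested. In knockout replicate 3, without the enzyme signal, Slc6a4 at 6.59, Tph1 at 6.81 and Ddc at 7.82 all lay below the wild type ranges, with shifts of -0.64, -0.76 and -0.60. In this 1 array, 4 of the 8 genes lay below the wild type range and 1 above it. Of all genes, 21.5% lay below and 18.2% above. The other 3 knockouts averaged further below wild type for Slc6a4, and without replicate 3 the log2 difference was -1.03 (adjusted p = 0.00838 by limma). For Tph1 and Ddc it was -0.73 and -0.50 without replicate 3 (adjusted p = 0.234 and 0.208 by limma). Both were smaller in size than the shifts of replicate 3. Of 5 islet markers, 0 passed the adjusted threshold. The hormone genes Ins2 and Iapp stayed under 4.1 in all arrays, below the olfactory receptor percentile, although Ins2 was without overlap higher in knockout (log2 difference 0.24, adjusted p = 0.217 by limma). The transcription factor gene Mafa was the 1 islet marker above that percentile, at 7.05 in both genotypes.

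The genes whose pattern was most like those of Slc6a4 and Tph1 were sought among 12908 named genes brighter than the 95th percentile of the olfactory receptor genes. Likeness was Pearson's r over the 8 arrays of the deviations from each genotype's mean, so the genotype difference itself plays no part. For Slc6a4 the closest were Gstm2 (r = 0.99), Rnf185 (0.97), Nacc1 (0.96), Repin1 (0.96) and Cdk16 (0.96). For Tph1 they were Fam3a (r = 0.98), Grb7 (0.98), Tmtc2 (0.98), Ube2e2 (0.96) and Sstr1 (0.96). Grb7 was itself called lower (log2 difference -0.79, adjusted p = 0.0392 by limma; the call was kept without knockout replicate 3 or 4 and lost without any other single array, with adjusted p up to 0.147), and Tmtc2 had a log2 difference of -0.01. The same r was 0.64 between Slc6a4 and Tph1, 0.71 between Tph1 and Ddc, and 0.57 between Slc6a4 and Ddc, and it was below 0 between Slc18a1 and both Slc6a4 (-0.64) and Tph1 (-0.53). These values describe 8 arrays that were normalized together, and the highest of so many genes are high by selection.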

How the data were processed

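Total RNA from 8 mice (4 per genotype) was hybridised to 1 Affymetrix array each. The deposited values are log2 signals, which the authors made by RMA in Affymetrix Expression Console 1.4, per the submitters' processing notes. RMA corrects background, gives arrays a common distribution and summarises probes, and it compresses differences of dim genes. Probe set filters and scan batches: not given in the sources used here. Array medians lay between 5.73 and 5.83. The number of arrays limits the precision. The labels name separate mice.

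Of 41345 probe sets, 23521 had 1 symbol, 1814 several and 16010 none. Symbols were updated by Entrez identifier (23328 matched; GRCm38.p6). The brightest probe set stood for the gene, leaving 22180 genes with no filter. Knockout was tested against wild type by limma 3.58.1 (lmFit and eBayes without covariates; R 4.3.3). P-values were adjusted by Benjamini-Hochberg across all 22180 genes, and 0.05 was the threshold. The scripts were tested on simulated data.

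The 8 genes and all lists were chosen with earlier results of these data known. Named besides the 8 were Trim58, the called genes of each list, or its smallest p (3 for the pathway and enterochromaffin lists), and 5 likeness genes each for Slc6a4 and Tph1. Other genes were named after their values were seen. List genes without a single-symbol probe set, among them Fev, were not analysed here. Same-numbered replicates did not deviate together, so replicates were not paired. Promoters of 5 of the 8 genes came from RefSeq. Alternatives were other variance models, normalizations, filters and probe set rules, a replicate block and leaving out arrays.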

Additional observations from a re-analysis of the deposited data

Results flagged for a closer look

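In 56 named genes, each genotype's 4 values were examined for 1 array far from the others, where chance marks about 1 group in 20. Of 112 groups, 5 had such an array, all knockouts, and none was for the 8 serotonin genes. Chga, the enterochromaffin granule gene, was 7.78 in knockout replicate 2, below 8.49 to 8.63 in the other knockouts. Aldh1b1 was 7.50 in knockout replicate 4, below 7.80 to 7.84 in the others. Car4 was 11.18 in knockout replicate 3, above 10.54 to 10.58 in the others. Cxcr2, a neutrophil receptor, was 9.03 in knockout replicate 2, above 8.01 to 8.17 in the others. Ctrl, a pancreatic protease gene, was 6.93 in knockout replicate 3, below 11.98 to 12.87 in the others.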

How the results depend on the processing

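Over 16 other settings, the Slc6a4 log2 difference stayed between -1.03 and -0.83 and it passed the adjusted threshold (limma) in 11. It was lost in 4 of the 8 fits without 1 array and with the replicate block (adjusted p = 0.0946). Tph1, Ddc, Maoa, Slc18a1 and Htr4 stayed below 0 and Htr7 above 0 under each of these settings that tested them, with none past the threshold; Htr7 was not tested in the fit without the dimmest 33.3% of genes. Htr3a, at 0.01, was below 0 in 2 fits without 1 array. Of the 8 genes, 1 passed, while leaving out 1 array gave 0 to 1 and the replicate block gave 0. In the fits without 1 array, 3 to 5 of the 8 had no overlap. The 5 were found without wild type replicate 4, with 4 lower and 1 higher in the knockout. In each fit without 1 array, the share of all genes without overlap was also above the 8.81% of the main fit. Over all genes, 87 were called higher and 41 lower. Leaving out 1 array gave 24 to 172 higher and 1 to 80 lower. The block gave 56 higher and 8 lower, and the pairing check gave correlations of deviations of -0.14, -0.16, 0.04 and 0.05 for same-numbered arrays. Genes called lower were 64 with the mean-variance trend, 69 with array weights and 80 without the dimmest 33.3% of genes, where fewer genes were tested. Knockout replicate 3 alone against wild type, chosen after seeing the data and assuming that it varies like the wild type arrays, gave 14 higher and 0 lower, 0 of the 8 genes past the threshold and 5 outside the wild type range, 4 below it and 1, Htr7, above it, against 21.5% and 18.2% of all genes. At an unadjusted p under 0.05, 4 of the 8 genes were lower with the block (7.62% of all genes). In the fits without 1 array, 3 to 5 were lower, against 5.57% to 9.16% of all genes. Counted in either direction, 3 to 5 passed in these fits, against 10.2% to 15.1% of all genes. The cause of these changes was not tested. The 8 arrays, and signal near background for Htr7, limit what can be detected.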

Other observations

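The difference between the uptake gene Slc6a4 and the synthesis gene Tph1 varied more among the knockouts than among the wild type mice. Slc6a4 minus Tph1 was -0.20, -0.23, -0.40 and -0.53 in wild type replicates 1 to 4 and -0.88, -0.17, -0.22 and -0.87 in knockout replicates 1 to 4 (log2). Slc6a4 was thus furthest below Tph1 in knockout replicates 1 and 4. Knockout replicate 2 lay just above the wild type values, and knockout replicate 3 lay among them. This contrast was noticed after the values were seen and was not tested.

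The monoamine oxidase genes Maoa and Maob differed in the size of their values. Maob read 8.05, 8.21, 7.89 and 7.68 in wild type and 7.24, 6.69, 7.26 and 7.62 in knockout (log2 signal), with all knockouts below the wild type range, whereas Maoa overlapped between genotypes. The difference between both genes was not tested.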
